A study of Saccharomyces cerevisiae with 6 samples.

Results

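The 25S ribosomal RNA gene was represented in the Topo-seq lists by 1167 fragments of nucleosomal DNA, of 9277 fragments that passed the same minimum over the whole genome. They were the fragments on chromosome XII (R64 genome) with a midpoint in RDN25-1 (451786 to 455181) or RDN25-2 (460923 to 464318), both on the minus strand, and 10 or more reads in both gel sections, each summed over both sequencing runs. The reference holds 2 copies of the repeat with the same sequence, 9137 bp apart, so fragments at the same place in both copies were folded onto one gene of 3396 bp and their reads were added. This left 642 fragments of 8277, of which 525 had passed in both copies and 117 in 1. The folded fragments are named here by their first and last base on the transcribed strand, counted from the 5′ end of the gene. The choice used only position and read number, not the partition between sections.

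All samples came from 1 library, prepared from the yeast strain FY251 grown in rich medium. Micrococcal nuclease (MNase) had released mononucleosomal DNA from its chromatin, and each fragment had been cloned into the circular minichromosome YCp1.3. The study inferred that most of the inserts assembled nucleosomes inside the cell. It allows that some values could reflect partial nucleosome occupancy or other bound factors. FY251 transformants were selected on synthetic medium without tryptophan, pooled, incubated in liquid medium of the same kind and fixed. Their minichromosome DNA was separated by linking number (Lk) on 1 agarose gel, which was cut at the mean Lk of the pool. Topo-seq-A is the DNA of section A above the cut (Lk above the mean, less negative supercoiling), Topo-seq-B that of section B below it, and NucLib is the library before the gel. Each was sequenced in 2 flow cell lanes, called runs here. The gel was run once and the runs repeat only the sequencing of the same DNA, so every p-value below covers sequencing error, not the variation of cultures, transformations or gels.

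In budding yeast the ribosomal DNA is a tandem array on chromosome XII, in which RNA polymerase I transcribes each unit into 1 precursor that is cut into the 18S, 5.8S and 25S RNAs. The 25S RNA is the large RNA of the 60S ribosomal subunit and holds its peptidyl transferase centre. Only some of the repeats are transcribed at a time, and those that are carry few regular nucleosomes, so nucleosomal fragments of the gene are generally taken to come mostly from silent repeats. A nucleosome wraps DNA in left-handed turns and thereby stabilises a negative linking number difference (∆Lk). The ∆Lk of a fragment was calculated from its partition between the sections, and the value of −1.26, the mean the study had assigned to the library, marks the cut.

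A few stretches of the gene carry the results below, and each is given 5′ to 3′ on the transcribed (minus) strand of RDN25-1, from the R64 RefSeq sequence. In the first 4, capitals mark every AA, TT and TA step, which nucleosomal DNA tends to place where the minor groove faces the histones. The first fragment is the one of this gene that the study had also examined singly (chrXII:453122-453270), the next is one of those with the highest share in section A (chrXII:453287-453432), and the other 2 had the lowest shares (chrXII:453488-453595 and chrXII:451852-451961).
25S 1912 to 2060: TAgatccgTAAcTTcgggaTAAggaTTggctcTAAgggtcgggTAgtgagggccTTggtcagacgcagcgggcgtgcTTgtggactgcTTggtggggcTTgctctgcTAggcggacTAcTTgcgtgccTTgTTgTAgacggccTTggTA
25S 1750 to 1895: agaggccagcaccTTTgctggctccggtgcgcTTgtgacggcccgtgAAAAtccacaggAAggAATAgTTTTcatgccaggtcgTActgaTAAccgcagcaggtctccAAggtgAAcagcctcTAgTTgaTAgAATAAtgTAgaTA
25S 1587 to 1694: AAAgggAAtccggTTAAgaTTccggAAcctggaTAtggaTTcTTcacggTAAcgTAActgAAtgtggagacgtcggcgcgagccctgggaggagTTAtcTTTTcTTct
25S 3221 to 3330: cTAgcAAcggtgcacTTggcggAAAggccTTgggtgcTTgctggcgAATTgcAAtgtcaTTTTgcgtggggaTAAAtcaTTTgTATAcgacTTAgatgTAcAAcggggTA
These steps made up 14.9% of the dinucleotide steps in the first, 17.2% in the second, 20.6% in the third and 22.9% in the fourth, against a mean of 17.7% over all 642 fragments. The order of these 4 is not that of the gene. Over all 642 fragments the steps were somewhat more frequent where the share in section A was higher (Spearman's rho 0.19). The fifth stretch is the densest part of the gene (chrXII:453093-453309), and capitals there mark the bases at which at least 7 different fragments of the largest group of overlapping fragments began or ended.
25S 1873 to 2089: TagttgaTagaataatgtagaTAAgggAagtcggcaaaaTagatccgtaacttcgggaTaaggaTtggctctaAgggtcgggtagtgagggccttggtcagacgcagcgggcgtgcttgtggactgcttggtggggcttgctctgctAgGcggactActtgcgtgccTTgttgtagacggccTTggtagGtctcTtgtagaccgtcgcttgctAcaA
Of its 21 marked bases, 10 were 5′ ends, all at A or T, and 11 were 3′ ends, 9 of them at A or T and 2 at G. Over all 642 fragments the first base at the left end was A or T in 84.9% and at the right end in 85.4%, against 52.1% of the bases of the gene. Outside the rDNA these shares were 84.9% and 84.8%. MNase is known to cut next to A and T more readily, and its part in these shares was not tested.

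The fragments covered the whole gene, but very unevenly. Every base lay in at least 2 fragments, the median base in 17, and base 1995 in 216, which also carried the most section reads (114307, against 323 at the least covered base and a median of 6061). Of 17 windows of 200 bp, the window from base 1801 to 2000 held the midpoints of 184 fragments, which is 28.7% of all, and 30.5% of the reads. The window from 1201 to 1400 held 81 and that from 2001 to 2200 held 59, whereas the window from 1401 to 1600 held 9. Together the 642 fragments used 211 starts and 246 ends on the chromosome, and 22 of them reached beyond an end of the gene. In the gene as a whole 13984 different folded fragments were listed in some run, and the 642 held 83.4% of the section reads of all of them.

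**Figure D1:**
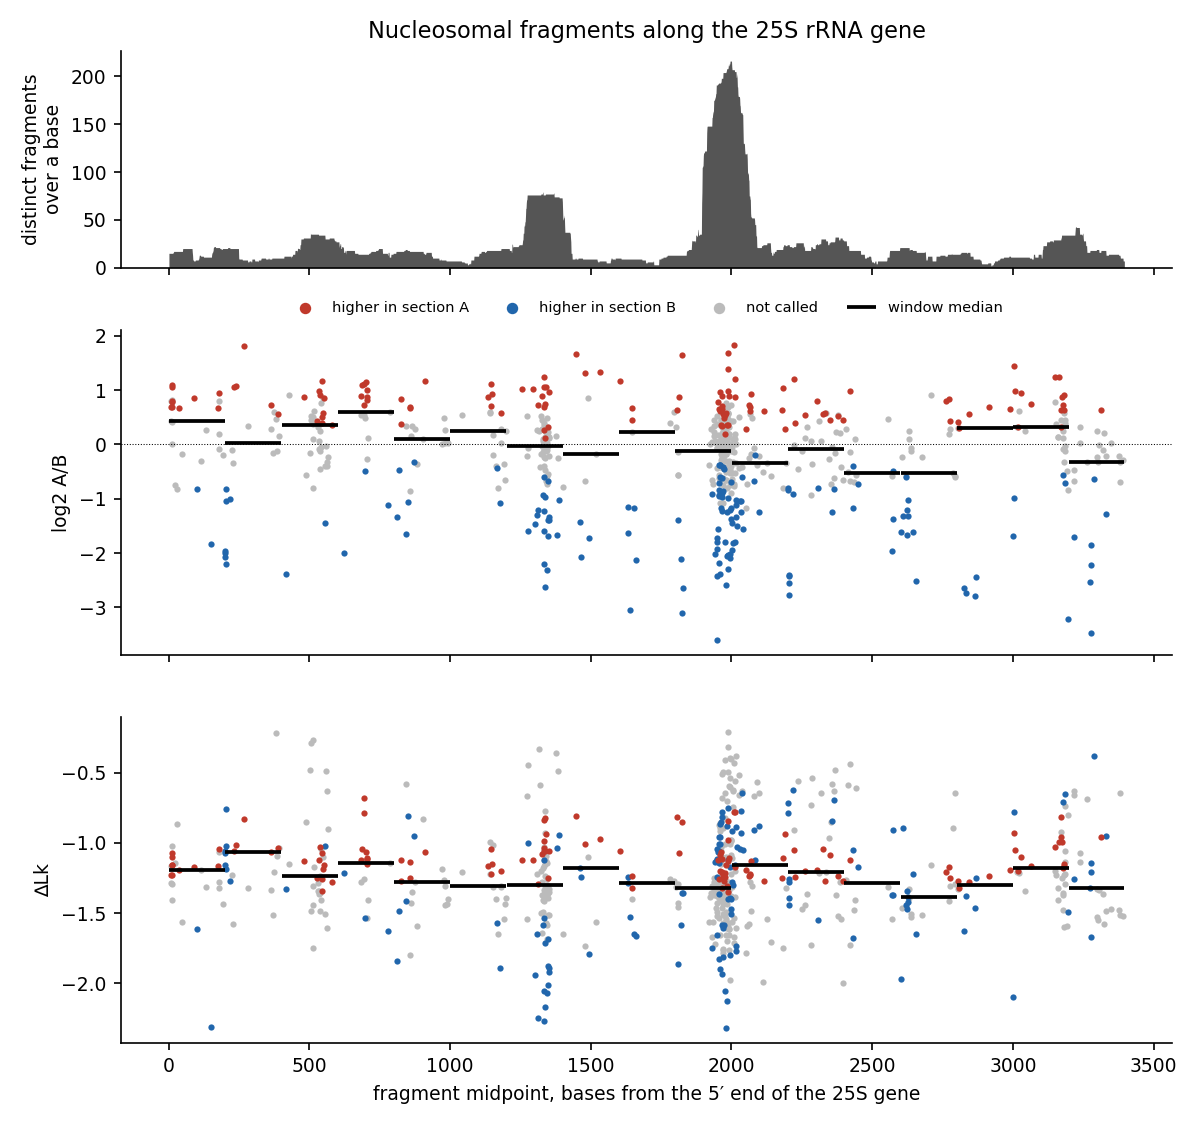
Fragments along the 25S gene, with the base from the 5′ end on the x axis. The top panel gives the number of distinct fragments over each base, the middle panel log2 A/B and the bottom panel ∆Lk of each of the 642 fragments at its midpoint, coloured by the edgeR call (adjusted p under 0.05), with black bars for the medians of the 17 windows. Coverage peaks at 216 fragments at base 1995, and high and low values occur side by side in the crowded windows.

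Sequencing depth varied widely between fragments. Section A gave them 187024 reads (4.96% of the section A lists), section B 178939 (5.35%) and NucLib 127633 (4.91%). By run the share was 4.97% and 4.94% for section A, 5.33% and 5.36% for section B, and 4.86% and 4.93% in NucLib, so the runs of a sample differed less than the sections did. A fragment had 10 to 9547 reads in section A (median 68.5) and 12 to 15356 in section B (median 72), and 3 fragments had none in NucLib. Of the 642, 217 had 100 or more in both sections. The reads of a fragment fell evenly on both reference copies, with 50.1% of section A reads and 49.9% of section B reads on RDN25-1. The mean chi-square of copy 1 against copy 2 was 1.01 for section A and 1.08 for section B, close to the value of 1 that chance assignment of reads gives, and the copies are therefore not separate measurements.

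The partition between sections was expressed as log2 A/B, the ratio of a fragment's share of the section A reads to its share of the section B reads. Its median over the 642 fragments was −0.03 (quartiles −0.66 and 0.44), against −0.08 for 301 fragments of the 18S gene, 0.15 for 349 of the rest of the rDNA and 0.11 for 6985 outside the rDNA. By edgeR's quasi-likelihood test over all 8277 fragments (Benjamini-Hochberg, threshold 0.05), 129 of the 642 (20.1%) were higher in section A and 148 (23.1%) were higher in section B. Over all fragments tested 24.9% were higher in section A and 22.5% were higher in section B, so the share called higher in A lay below the background and the share called higher in B near it. The remaining 365 were not called. With TMM scaling in place of list totals, 108 were higher in A and 170 in B. That scaling moved the median fitted log2 A/B of all fragments to −0.02, against 0.09 with list totals. It moved that of the 642 to −0.15, against −0.03. The share of all fragments called with TMM scaling is not given here, so these 2 counts have no background beside them.

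These counts followed depth. Among the 217 fragments with 100 or more reads per section, 94 were higher in section A and 40 in section B, and among the other 425, 35 were higher in A and 108 in B. The deep ones were thus 43.3% higher in A and 18.4% higher in B, against 49.3% and 20.8% of all fragments tested at that depth, and the others 8.24% and 25.4%, against 15.2% and 23.2%. In both sets the share higher in A was larger among the deep fragments. With a minimum of 50 reads per listed fragment, refitted, 97 of 228 were higher in section A and 45 in section B, and the median log2 A/B was 0.19. Without refitting, 33.2% of the 334 folded fragments of the gene with 50 or more reads per section were higher in A and 19.5% in B. Over all fragments at that depth the shares were 41.2% and 21.0%. With a minimum of 5, 137 of 1051 were higher in A and 227 in B, and the median was −0.20. The refits tested 3472 fragments with a minimum of 50 and 12654 with a minimum of 5. Their shares called over all fragments are not given here, so the refitted counts are not set against a background. The sign of the median log2 A/B of the gene thus changed with the minimum. Fragments outside the rDNA moved the same way, with a median of 0.29 among 3028 folded fragments with 50 or more reads per section, against 0.13 among 334 of the 25S gene at that depth. Just inside the limit, 132 listed fragments with 10 or 11 reads in their scarcer section had a median of −0.48, and just outside it 156 with 8 or 9 had −0.46.

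**Figure D2:**
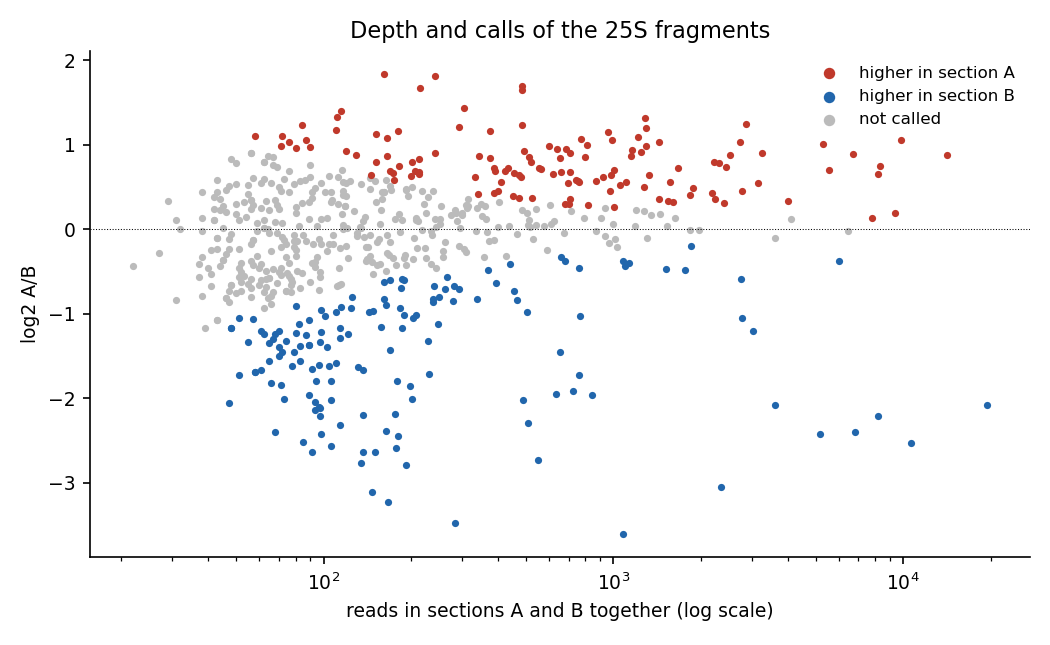
log2 A/B of each of the 642 fragments against its reads in both sections together (log scale). Red points were higher in section A (129), blue points higher in section B (148) and grey points not called (365). Below 100 reads the called points are mostly blue, and at the right mostly red.

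The partition differed with length, in the 25S gene as in the whole library. Of 36 fragments under 100 bp, 0 were higher in section A and 18 in section B, and of 85 fragments of 100 to 119 bp, 0 and 52. Of all fragments tested at these lengths 2.52% and 1.94% were higher in section A, so the 0 of 36 and the 0 of 85 lay near the background. Higher in section B were 52.1% and 68.1% of all, so that the 18 of 36 and the 52 of 85 (61.2%) of the gene lay near or below the background. At an unadjusted p under 0.05 the counts higher in A were 0 and 0, and DESeq2 called 0 and 0 of them higher in A. At 140 to 159 bp, the length of a nucleosome core, the order was turned, with 95 of 227 (41.9%) higher in A and 17 (7.49%) in B, against 42.0% and 4.66% of all fragments at this length. At 160 to 179 bp the counts were 16 and 14 of 119 (13.4% and 11.8%), against 12.7% and 16.1% of all fragments at this length. The median log2 A/B was −0.98 at 100 to 119 bp, −0.23 at 120 to 139 bp, 0.44 at 140 to 159 bp and 0.06 at 160 to 179 bp, and outside the rDNA it was −1.73, −0.30, 0.50 and −0.04 in these classes. Fragment length (115 different values) accounted for 47.5% of the variance of log2 A/B in the gene, the 73 clusters of fragments with shared ends (described below) for 21.5% and the 17 windows for 7.16%, shares that grow with the number of groups and are not comparable between groupings for that reason. Across the 642 fragments, which share libraries and often ends, Spearman's rho of log2 A/B was 0.36 with length, −0.21 with GC content and 0.19 with the share of AA, TT and TA steps.

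**Figure D3:**
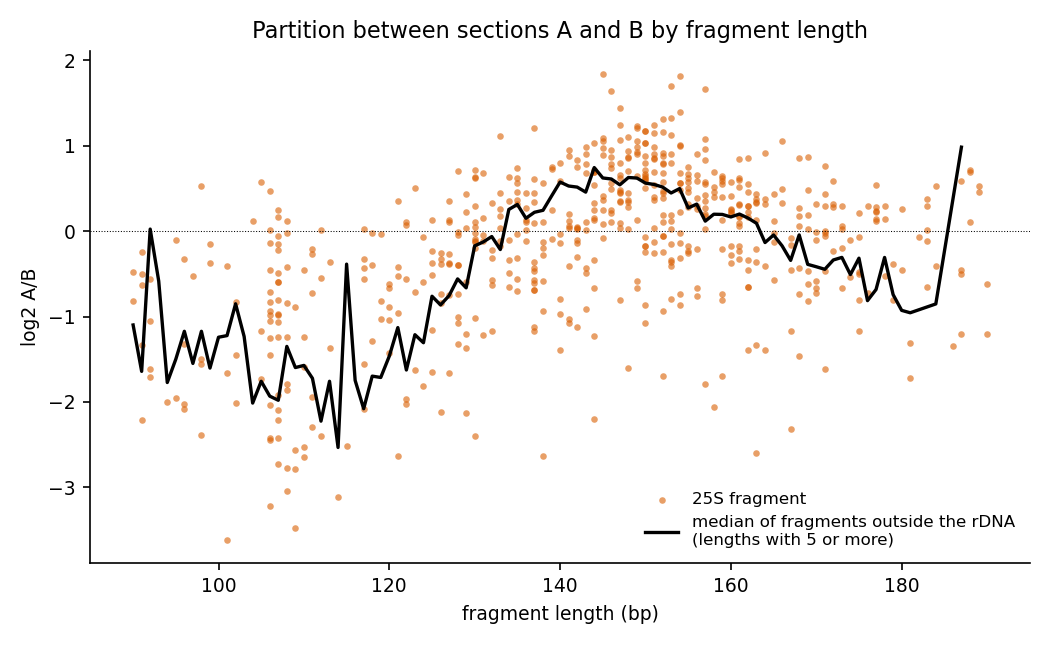
log2 A/B (y axis) of the 25S fragments of 90 to 190 bp against fragment length in bp (x axis), with the median of fragments outside the rDNA at each length as a line. Both rise between about 115 and 145 bp and decline again at longer lengths. At 100 to 119 bp the median is −0.98 in the 25S gene and −1.73 outside the rDNA.

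∆Lk is the partition after correction for length. The Z-score of the share of section A is scaled by the SD of the Lk distributions (0.85), reduced by the average of all fragments with that length, and moved by 0.007 for each bp of difference from 144 bp. The median ∆Lk of the 642 fragments was −1.25 (quartiles −1.43 and −1.05, SD 0.348). Run 1 alone gave −1.24 and run 2 alone −1.25. The median was −1.19 in the 18S gene, −1.17 in the rest of the rDNA and −1.25 outside the rDNA. Of the 642, 327 (50.9%) lay above −1.26, against 51.8% outside the rDNA. The middle of the 25S distribution was hence near that of the genome outside the rDNA and lower than in the other rDNA parts. With 50 or more reads per section the median ∆Lk of the 25S gene was still below that of the 18S gene (−1.23 and −1.20). The order of their deviations from the mean of the same length changed with depth. Median lengths were 146 and 141 bp, and the median deviations from the mean of the same length were 0.052 and 0.065. In the rest of the rDNA this deviation was 0.107 and outside the rDNA 0.023. With 50 or more reads per section it was 0.094 in the 25S gene, 0.089 in the 18S gene, 0.119 in the rest of the rDNA and 0.048 outside. The SD over single fragments was 0.329 to 0.364 in the rDNA regions. No test of a difference between regions was made, because there is 1 gel.

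Short 25S fragments had a higher median deviation than those outside the rDNA, a difference that was not tested. At 100 to 119 bp, the deviation from the mean of the same length had a median of 0.190 in 85 fragments of the 25S gene (0.223 in run 1 and 0.170 in run 2), against 0.064 in 60 of the 18S gene, 0.358 in 42 of the rest of the rDNA and −0.065 in 794 outside the rDNA. At 140 to 159 bp it was 0.016 in the 25S gene and 0.033 outside the rDNA. Because ∆Lk contains a term for length, it declined with length among the 642 fragments (Spearman's rho −0.59), while the deviation from the same length had a rho of −0.13 with length, −0.04 with GC content and 0.01 with the share of AA, TT and TA steps. The mean GC content of the 25S fragments was 52.0%, against 44.0% outside the rDNA.

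Along the gene, the window with the highest median ∆Lk was that from base 201 to 400, with −1.07 over 20 fragments (quartiles −1.24 and −1.03; −1.05 in run 1 and −1.11 in run 2). The lowest was from base 2601 to 2800, with −1.38 over 25 fragments (quartiles −1.46 and −1.22; −1.34 in run 1 and −1.38 in run 2). Of the 20 fragments in the high window 5 were higher in section A and 6 in section B. Of the 25 in the low window 3 were higher in A and 9 in B, against 24.9% and 22.5% of all fragments tested. The median length was 136 bp in the high window and 149 bp in the low one, and ∆Lk contains a term for length. The median deviation from the mean of the same length was 0.037 in the high window and −0.115 in the low one. Over all 642 fragments it was 0.052, and it was highest (0.198) in the window from 601 to 800. That window had a median ∆Lk of −1.14 (17 fragments), and the window from 3001 to 3200 one of −1.18 (39 fragments). The crowded window from 1801 to 2000 had −1.32 over 184 fragments, with quartiles of −1.49 and −1.07 that span most window medians. Windows accounted for 4.65% of the variance of ∆Lk, so most of it lay between fragments of the same window.

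Summed reads and the median fragment gave log2 A/B of opposite sign in 5 of the 17 windows. In the window from base 1 to 200 the median fragment had a log2 A/B of 0.44, but the summed reads gave −1.27, with 8432 in section A and 17986 in section B. One fragment of 96 bp, which began at base 153, held 4102 of those section A reads and 15356 of those in section B. In the last window, from 3201 to 3396, the sums were 7045 in section A and 19189 in section B (log2 A/B −1.62, against −0.32 for the median fragment), of which the 110 bp fragment from 3221 to 3330 gave 1739 and 8895. The signs were also opposite in the windows from 1601 to 1800 (0.23 for the median fragment and −1.24 for the sums), 2801 to 3000 (0.30 and −0.22), 1201 to 1400 (−0.02 and 0.35) and 1801 to 2000 (−0.13 and 0.23).

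Among the fragments with 100 or more reads per section, the 8 with the lowest log2 A/B were all between 96 and 122 bp long. The fragment from base 1587 to 1694 (108 bp) had 70.4 and 80.7 RPM (reads per 1000000 reads of a list) in the section A runs, against 598 and 636 in the section B runs. This was the lowest of them, 8.26-fold lower in section A (log2 A/B −3.05, 95% counting interval −3.23 to −2.87, edgeR adjusted p = 1.19e-26). NucLib had 187 and 144 RPM of it, between the sections. The fragment from 3221 to 3330 had 450 and 475 RPM in section A, and 2643 and 2670 in section B (log2 A/B −2.53, adjusted p = 1.81e-34). Its neighbour from 3224 to 3330, 3 bp shorter at the 5′ side, had a log2 A/B of −2.21. A similar pair ended at base 2259, with −2.43 for the fragment that began at 2153 and −2.40 for that which began at 2148. The remaining 3 began at base 153 (96 bp), 1406 (117 bp) and 1934 (122 bp), with values of −2.08, −2.08 and −2.02. In all 8 both section A runs lay below both section B runs.

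After correction for length these fragments were less extreme. The ∆Lk of the fragment from 1587 to 1694 was −1.53 (counting interval −1.58 to −1.47; −1.55 in run 1 and −1.49 in run 2), that of 3221 to 3330 was −1.32, and that of the 96 bp fragment from base 153 was −1.16, above −1.26. A strong enrichment in section B therefore did not always mean a ∆Lk below −1.26. Fragments of about these lengths were enriched in section B over the whole library. The 96 bp fragment still lay below the mean of its own length (deviation −0.233), and the term for length placed its ∆Lk above −1.26.

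The 8 with the highest log2 A/B were between 137 and 153 bp long. The fragment from 1913 to 2065 (153 bp) had 113 and 85.4 RPM in the section A runs, against 31.1 and 31.1 in the section B runs. It was 3.23-fold higher in section A (log2 A/B 1.69, counting interval 1.38 to 2.02, edgeR adjusted p = 1.44e-10), with a ∆Lk of −0.84. The fragment from 1750 to 1895 had 93.1 and 108 RPM in section A, and 38.5 and 26.8 in section B (log2 A/B 1.64, adjusted p = 2.25e-10), with a ∆Lk of −0.85 that was −0.99 in run 1 and −0.73 in run 2. Their section A runs lay clearly above their section B runs. The deepest of the 8 ran from 3090 to 3236, with 555 and 547 RPM in section A, against 246 and 222 in section B (log2 A/B 1.25, ∆Lk −0.996). The others, from 1403, 3073, 1946, 1530 and 627, had values between 1.15 and 1.31. In all 8 both section A runs lay above both section B runs. The fragments at both extremes were chosen by these values, so this is a description.

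**Figure D4:**
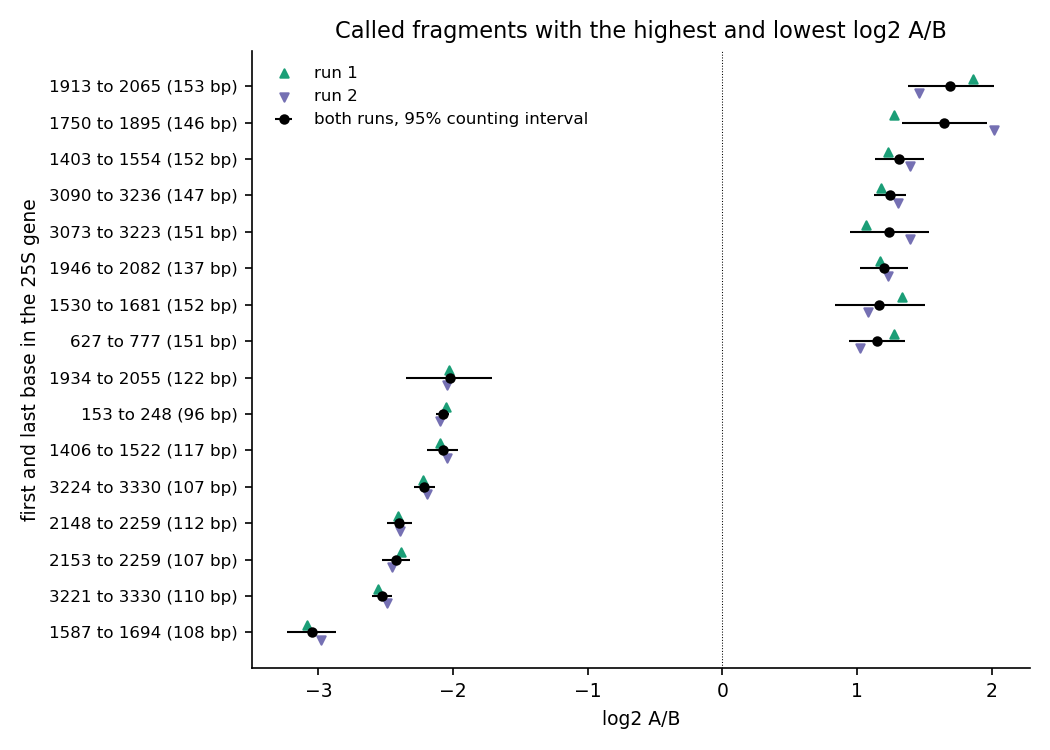
The 8 highest and the 8 lowest called values of log2 A/B (x axis) among fragments with 100 or more reads per section, listed by first and last base. Black points with bars are both runs together with the exact 95% counting interval, and triangles are the single runs. The values lie between 1.15 and 1.69 for the upper 8 and between −3.05 and −2.02 for the lower 8, and in no fragment do the runs lie on different sides of 0.

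The 5 fragments with most reads in NucLib ranged in log2 A/B from −2.08 to 1.05. The leading one, from 1742 to 1882 (141 bp), had 2571 and 2482 RPM in section A, 1364 and 1390 in section B and 2448 and 2547 in NucLib. Its log2 A/B was 0.88 (counting interval 0.83 to 0.93, adjusted p = 9.81e-23) and its ∆Lk −1.07. It was followed by the short fragment from base 153 described above, then by 1263 to 1407 (log2 A/B 1.05, ∆Lk −1.06), 1894 to 2062 (0.19, −1.24) and 1894 to 2040 (0.65, −1.21). The fragment that the study had examined singly, from 1912 to 2060 (149 bp), had 236 and 238 RPM in section A, against 115 and 124 in section B and 163 and 190 in NucLib. Its log2 A/B was 0.98 (adjusted p = 5.71e-11) and its ∆Lk −1.13 (counting interval −1.19 to −1.07; −1.12 in run 1 and −1.14 in run 2). The fragment from 1913 to 2065, shifted by 1 base at the 5′ end and by 5 at the 3′ end, had a ∆Lk of −0.84, and the counting intervals of both do not overlap.

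The extremes of ∆Lk were other fragments than those of log2 A/B. The 4 highest at 100 or more reads per section were short. The fragment from 1937 to 2040 (104 bp) had 36.6 and 36.5 RPM in section A, and 31.7 and 35.4 in section B, which was not called (adjusted p = 0.657), but at a length where most fragments were enriched in section B this gave a ∆Lk of −0.32 (counting interval −0.45 to −0.18). The fragments from 1263 to 1369 and from 1323 to 1429, both 107 bp, had −0.33 and −0.36, and that from 3248 to 3330 (83 bp) had −0.38. The last of these shared its length with few others, since 8 fragments in all had 83 bp. The 4 lowest were 1272 to 1427 (∆Lk −1.68), 1894 to 2086 (−1.61), 1896 to 2089 (−1.61) and 1894 to 2046 (−1.61). The length of 1894 to 2086 occurred in 2 fragments and that of 1896 to 2089 in 6, so their ∆Lk came largely from the term for length.

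Most fragments belonged to families with shared ends. Joining fragments that share a start or an end gave 73 clusters, of which 49 held 1 fragment and the 3 largest 355 together. The largest, from base 1840 to 2205, held 224 fragments made from 45 starts and 46 ends, with ∆Lk between −2.32 and −0.21 (median −1.28). By the edgeR call, 29 of them were higher in section A, 55 were higher in section B and 140 were not called. Of all fragments tested 24.9% were higher in A and 22.5% in B. The next, from 1181 to 1447, held 80 (median ∆Lk −1.30, from −2.27 to −0.33), and the third, from 3073 to the 3′ end of the gene and beyond, held 51 (median −1.20, from −1.67 to −0.38).

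In the hot region of the sequence given above, many pairs of the recurrent ends were present. The 10 5′ ends and 11 3′ ends that recurred in at least 7 fragments allow 110 pairs, and 86 of them (78.2%) were present, from 84 to 196 bp long and with log2 A/B from −2.59 to 0.90. These ends were picked because they recurred, which favours filled pairs, and of all 2070 combinations of the 45 starts and 46 ends of the cluster 10.8% were members. Base 1894 was the 5′ end of 32 fragments with 34373 section reads, base 1896 of 27, and base 2040 the 3′ end of 18. A pair of neighbouring 5′ ends differed in the partition of their fragments. All 8 fragments of the grid that began at base 1931 had a log2 A/B below 0 (−2.29 to −0.52), of which 4 were called higher in section B, whereas of the 8 that began at 1937 3 were below 0 and 1 was called, higher in section A. These sites were picked after their values were seen, and the fragments from 1931 were scarce (median 99 section reads).

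**Figure D5:**
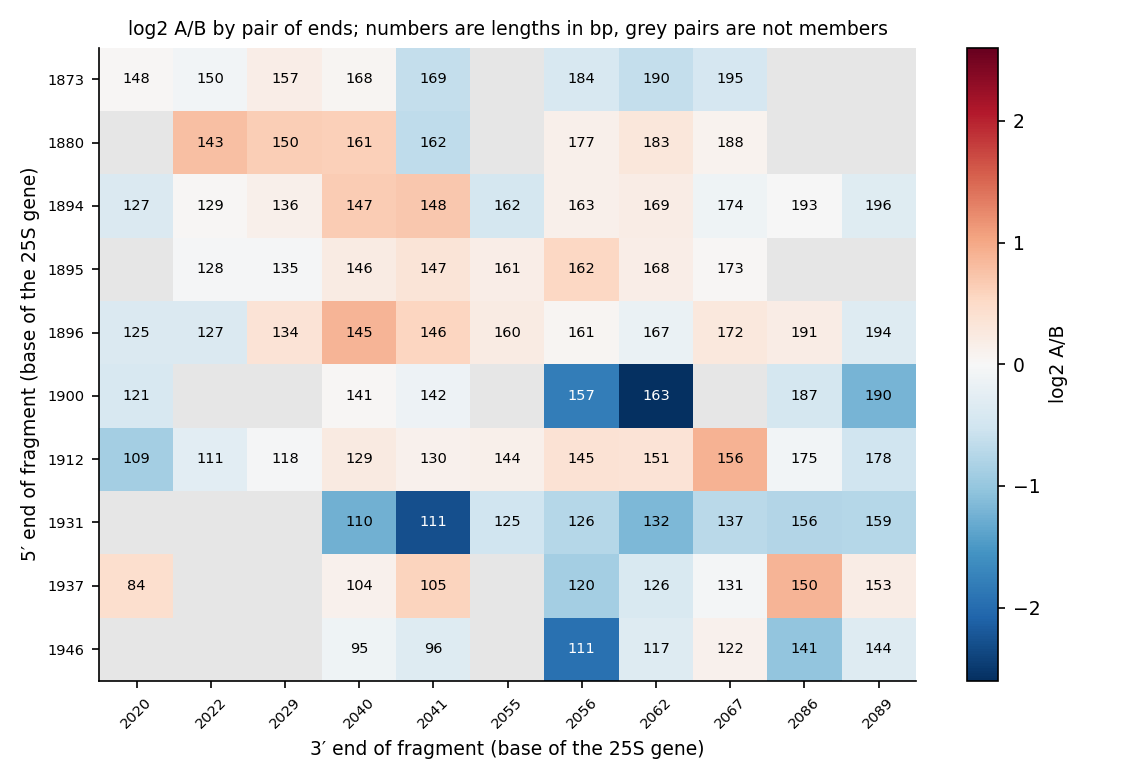
log2 A/B (colour) of the 86 fragments that combine the 10 recurrent 5′ ends (rows) and 11 recurrent 3′ ends (columns) of the hot region, with each length in bp printed in its cell and grey cells for pairs that were not members. The row of the 5′ end at base 1931 is blue throughout (−2.29 to −0.52), and the column of the 3′ end at base 2040 changes with the 5′ end.

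Holding one end fixed showed how the partition changed with the other. Among fragments that began at base 1894, extension of the 3′ end moved the log2 A/B in steps. The fragment that ended at 2000 (107 bp) had 43.4 and 45.3 RPM in section A, against 160 and 173 in section B, a log2 A/B of −1.92 (adjusted p = 2.51e-15). NucLib had 425 and 432 RPM of it, more than either section. At 2020 (127 bp) it was −0.37, at 2022 (129 bp) 0.03, at 2029 (136 bp) 0.13, and at 2040 (147 bp) 0.65, with 1409 and 1353 RPM in section A, against 908 and 859 in section B. At 2062 (169 bp) it was 0.19, and at 2067 (174 bp) −0.10. The value was thus highest near the length of the nucleosome core among these, which were chosen after seeing the values as deep examples of the 32.

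The same ladder held breaks between neighbours. The fragment that ended at 2043 (150 bp), with 91 section A and 147 section B reads, had a log2 A/B of −0.86 (adjusted p = 0.000676) and a ∆Lk of −1.81, whereas that which ended 2 bases earlier, at 2041 (148 bp), had 3580 and 1955 reads, a log2 A/B of 0.70 and a ∆Lk of −1.22. The run values of the shorter one were −1.23 and −1.21, and those of the longer one −1.75 and −1.91. At 2055 (162 bp) log2 A/B was −0.45 with 343 and 417 reads, and at 2056 (163 bp) 0.13 with 902 and 730. In each of these pairs the scarcer fragment had the lower value.

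Of the 18 fragments that ended at base 2040, 9 had 100 or more reads per section. Their starts were 1946, 1937, 1912, 1900, 1896, 1895, 1894, 1880 and 1873, and their lengths 95, 104, 129, 141, 145, 146, 147, 161 and 168 bp. In that order the log2 A/B was −0.10, 0.12, 0.23, 0.03, 0.89, 0.21, 0.65, 0.62 and 0.06, and ∆Lk was −0.40, −0.32, −0.82, −1.38, −1.12, −1.37, −1.21, −1.20 and −1.39. The log2 A/B had no steady order with length. The scarcer fragments that began at 1931 and 1935, of 110 and 106 bp, had a log2 A/B of −1.25 and −2.04 and a ∆Lk of −0.88 and −1.12. For 1931 the runs differed (∆Lk −0.72 in run 1 and −1.16 in run 2, with 29 and 10 section A reads). For 1935 they gave −1.09 and −1.16. Between 104 and 110 bp ∆Lk thus differed among fragments of the same region, and the run values of 1937 to 2040 (−0.29 and −0.32) lay apart from those of 1894 to 2000 (−1.11 and −1.10). The fragment from 1894 to 2000 was 4.06 times as abundant in NucLib as in the mean of both sections (RPM).

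Scarce relatives of deep fragments spread most. In the gene, 282 fragments shared neither end with one 10 or more times as deep, 267 shared 1 end and 93 shared both. The median log2 A/B was 0.22, −0.16 and −0.37 in these classes, and the SD of ∆Lk was 0.252, 0.363 and 0.511. Calls higher in section A against section B numbered 107 and 54 among the 282, 20 and 76 among the 267, and 2 and 18 among the 93. Of all fragments tested 24.9% were higher in A and 22.5% in B. Among those with under 100 reads in a section these shares were 15.2% and 23.2%. Median section reads were 386.5, 103 and 74 in the same order, so depth moved with the classes and its part in the difference was not tested. Of the 93 that shared both ends, 69 had a lower log2 A/B than both of the deep fragments that they shared an end with, 20 lay between them and 4 above. The 282 held 85.8% of the section reads.

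Nearly identical fragments were alike on the whole, though not always. There were 631 pairs of members whose starts and ends each lay within 3 bp, and the median absolute difference of ∆Lk between them was 0.178. For 13979 pairs of similar length (within 3 bp) with midpoints over 200 bp apart it was 0.226. At 100 or more reads per section the values were 0.109 over 101 close pairs and 0.143 over 2084 distant pairs, and 1 of the 101 close pairs differed by over 0.5. The same fragment read in run 1 and run 2 differed by a median of 0.0629 at this depth (217 fragments), so close neighbours differed by more than the sequencing runs did. Over all fragments the runs differed by 0.114 (641 fragments with a value in both), with Pearson's r of 0.80 over fragments, and 0.91 over the 217 deep ones.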

How the data were processed

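Values are from 6 lists deposited by the authors, one per sample and run (Topo-seq-A, Topo-seq-B and NucLib), which hold raw counts of read pairs per distinct fragment with chromosome, start and end, not normalized. The authors trimmed the MiSeq read pairs, mapped them with Bowtie 1.1.2 (genome R64) and computed statistics with SAMtools and Picard; BWA is also named in their notes. Each list ends at 65536 lines in falling order of count, so totals are lower bounds. The totals ran from 851697 to 2073823 reads. A fragment absent from a list was counted as 0. The coordinates of the lists count from 0 and are given here from 1.

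Section A was compared with section B by edgeR 4.0.16 (glmQLFit, glmQLFTest) over 8277 fragments, with list totals as library sizes. DESeq2 1.42.0 was an alternative. The study numbers its sequencing replicates 1 and 2 by flow cell lane, so same-numbered runs may have shared a lane, which the labels do not state. The differences between runs correlated by 0.07 across fragments between sections, and the run number as a block is an alternative. ∆Lk was computed by the steps of the study as far as its methods state them, with no calibration anew, and with its constants (0.85, 0.007 per bp from 144 bp, −1.26). Counting intervals are exact Clopper-Pearson 95% intervals, and they cover counting error only, as the lists count reads and not molecules. The scripts were tested on simulated data. R 4.3.3, limma 3.58.1 and Python 3.11.15 with scipy 1.17.1, numpy 2.4.6, pandas 2.3.3 and matplotlib 3.10.9 were used.

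At 100 or more reads per section, the text names the 8 highest and 8 lowest called values of log2 A/B and the 4 highest and 4 lowest of ∆Lk, besides the 5 with most NucLib reads, the fragment examined singly in the study, the extreme windows with at least 10 fragments and the 3 largest clusters. Other fragments were chosen after their values were seen. The members and lists were chosen with earlier results of these data known. Alternatives were another scaling, tool, read minimum, phase or length correction, unfolded copies, the block, and leaving out single runs.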

Additional observations from a re-analysis of the deposited data

How the results depend on the processing

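Of 642 fragments, 129 were called higher in section A and 148 in section B (277 in all). DESeq2 gave 62 in section A and 105 in section B (167 in all, all of them among the 277). With a minimum of 5 reads 227 were higher in section B, with 20 reads 77, and with 50 reads 142 were called, 45 of them higher in B. Unfolded, 210 of 1167 were higher in A. Leaving out 1 section run at a time gave 244 to 252 calls, 113 to 121 higher in A and 131 to 134 higher in B. The fit with the run number as a block called 289, all of the 277 among them (135 higher in A and 154 in B). Chosen after seeing the data, the set without fragments that share an end with one of at least 10 times their reads had 161 calls, 54 higher in B. Under every alternative not named here the counts stayed within 1.5 times.

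The median ∆Lk (−1.25) ranged from −1.25 to −1.24 over single runs. It was −1.23, −1.24 and −1.23 with minimums of 5, 20 and 50 reads, −1.23 with 1 value per cluster, −1.28 with no phase correction, −1.24 and −1.27 with phase means from outside the rDNA and from the list of fragments the study used, −1.21 with no length correction and −1.23 without fragments that share an end. The median log2 A/B (−0.03; −0.046 to −0.026 over single runs) turned to 0.12 and 0.19 with minimums of 20 and 50 reads, 0.10 with 1 value per cluster, 0.056 in the list of the study (chosen after seeing the data) and 0.22 without fragments that share an end. It was −0.20 with a minimum of 5 reads and −0.23 with reads relative to all fragments used. The cause was not tested.

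Of the 29 named fragments, the fitted log2 A/B kept its direction and side of the threshold in 193 of 203 refits. In 8 refits a called fragment lost its call, and the value of 1894 to 2086, which was not called (−0.02), ranged from −0.22 to 0.13 when 1 section run was left out (0.13 without section A replicate 2 and 0.02 without section B replicate 1).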

Other observations

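Some fragments were more abundant before the gel than in either section. NucLib reads exceeded 2 times the mean of both sections (RPM) in 47 of the 642 fragments of the 25S gene (7.32%), against 5.32% of the 18S fragments, 14.9% in the rest of the rDNA and 16.9% outside the rDNA. Among those with at least 100 NucLib reads, the 3 with the highest such ratio all ended at base 2000 of the gene. The fragment from 1896 to 2000 (105 bp) had 46.8 and 56.5 RPM in section A, and 173 and 167 in section B, against 560 and 534 in NucLib, a ratio of 4.92 (5.10 in run 1 and 4.78 in run 2). The fragment from 1894 to 2000 had a ratio of 4.06, and that from 1912 to 2000 of 4.08. The minimum of 10 reads applied to the sections and not to NucLib, and the fragments were picked after their values were seen.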
